A study of Mus musculus with 24 samples.

Results

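The data described here are the 12 arrays, of 24 in the series, that hold cultures labelled Mll1-deleted. They were read for genes whose expression was passing: high or low on days 1 and 2 and back towards its starting level by day 4. All 12 were used because their genotype label is Mll1-deleted. They come from 3 mice (489, 814 and 858), each with 1 array on days 0, 1, 2 and 4, so each group has n = 3. The other 12 arrays, of 3 wild-type mice (818, 862 and 870) on the same days, serve only as the comparison. In both genotypes the cells were subventricular zone cultures grown with 5% serum, EGF, FGF and pituitary extract through several passages. On day 0 they were in that medium, and differentiation was started by a medium with neither serum nor the growth factors. The labels give no driver of the deletion, no deleted exons, no age or sex, and do not say how many cells of each culture lost the gene. They name 1 mouse per culture, so p-values speak for these 3 cultures only. They rest on the spread left among the arrays after day and mouse are fitted.

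Mll1, now named Kmt2a, encodes a methyltransferase for lysine 4 of histone H3 that is needed in the subventricular zone for stem cells to make neurons. Neural stem cells held in EGF and FGF divide. When these are withdrawn, the targets of growth factor signalling shut down within hours and the cells start to become neurons, astrocytes and oligodendrocytes over days. A gene that is high only in between can belong to a passing state, such as a transit-amplifying progenitor or a cell adjusting to the new medium, and an array of a mixed culture cannot tell more cells of a type from more RNA per cell.

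Expression is given as the deposited intensity, a linear value without unit, and group means are geometric. For each gene and mouse the transient contrast is the mean log2 intensity of days 1 and 2 minus that of days 0 and 4, so 1 means 2-fold higher in the middle. It is given as the mean of 3 mice ± the SE of the linear model. That SE rests on the residual spread of all arrays fitted and is moderated across genes. It is not the spread of the 3 mouse contrasts, which can be wider. A gene is called at an adjusted p under 0.05. A called contrast alone can also come from a step, so a gene is termed a peak or dip only if the middle days were also called against day 0 and against day 4, in the same direction.

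The 24 arrays had median intensities of 75.6 to 87.1, and arrays of a group correlated with r from 0.984 to 0.996. The stem cell markers Sox2 (2992 to 4348), Nes (1324 to 2643) and Vim (11626 to 14489) were bright on all Mll1-deleted arrays, whereas over the 15 microglial markers the median of an array was 29.3 to 38.5 and over the 18 endothelial and pericyte markers 37.1 to 50.9, close to the level of 25.78 taken here as the floor. Mouse 858 stood apart from mice 489 and 814 in genes of dividing cells. The 27 mitosis genes had a median contrast of 0.45 in mouse 489, 0.74 in mouse 814 and -0.24 in mouse 858, and from day 0 to day 1 their median log2 intensity fell by 1.46 in mouse 858, against a change of -0.19 in mouse 489 and 0.35 in mouse 814 and of -0.93, -1.41 and -1.18 in the wild-type mice. Values without each mouse are given where they matter. Kmt2a itself had intensities of 580.0, 565 and 481 on day 0, 637, 578 and 577 on day 1, 610.1, 605 and 682 on day 2, and 377, 399 and 373 on day 4 in mice 489, 814 and 858, an order of mice used throughout. The wild-type means were 388, 483, 592 and 299 on days 0, 1, 2 and 4. Kmt2a was thus not lower on the Mll1-deleted arrays. A probe set outside the deleted exons checks nothing, and the labels do not place them. The Kmt2a contrast was 0.43 ± 0.074 (adjusted p = 0.00243), with the middle days called against day 4 only, and the call was lost without mouse 489 (adjusted p = 0.052).

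Of 21048 genes, 4019 (19.1%) had a called transient contrast in the Mll1-deleted cultures, 1789 higher (8.5%) and 2230 lower (10.6%) on days 1 and 2. Without the adjustment, 6838 had p under 0.05. Among the 1789 higher genes, 539 were peaks, 636 were called higher than day 0 but not than day 4, 572 higher than day 4 but not than day 0, and 42 on neither side. Among the 2230 lower genes, 457 were dips, 980 were lower than day 0 only, 742 lower than day 4 only, and 51 neither. The peaks are 2.56% and the dips 2.17% of all genes. Peaks were 54.1% of both together, and 67.0% of 957 when each array was shifted to one median. The counts depended on mouse 489: without it 852 genes were called (463 higher, 389 lower), with 138 peaks and 54 dips. Without mouse 814 it was 1956 (944 higher, 1012 lower), with 254 peaks and 147 dips. Without mouse 858 it was 4032 (1739 higher, 2293 lower). List counts without a mouse, given below, are to be read beside these. Across genes the contrasts of mice 489 and 814 correlated with r = 0.72, those of 489 and 858 with 0.63 and of 814 and 858 with 0.548, as a description of arrays normalised together.

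The peaks were of moderate size. Their median contrast was 0.54, 39 reached 1 (2-fold), and 499 of the 539 ended within 1.5-fold of their day 0 level. The highest group mean fell on day 2 in 312 and on day 1 in 227. In 477 peaks both middle days lay above both end days in every mouse, a pattern that 3.88% of all genes showed. The dips had a median contrast of -0.46, 10 reached -1, and 427 of the 457 ended within 1.5-fold of day 0. Their lowest mean was on day 2 in 355 and on day 1 in only 102. Both middle days lay below both end days in every mouse in 354 dips, and in 3.59% of all genes. Peaks and dips were chosen on these same values, so the counts by mouse describe them and are no separate support.

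The largest peak was Lrrn1, a leucine-rich repeat membrane protein of neural tissue. Its intensities were 161, 136 and 315 on day 0, 3017, 2459 and 3129.6 on day 1, 3278, 2998 and 3027 on day 2, and 1854, 1735 and 1635 on day 4. All 6 values of the middle days lay above all 6 of the end days, and day 4 stayed far above day 0. The contrast was 2.37 ± 0.147 (adjusted p = 1.15e-05). Adcyap1r1, the receptor of the neuropeptide PACAP, had 146, 53.1 and 238 on day 0, 1136, 836 and 2194 on day 1, 1422, 1515 and 1704 on day 2, and 799, 771 and 624 on day 4. Its groups did not overlap either, with mouse 814 lowest on days 0 and 1, and its contrast was 2.23 ± 0.251 (adjusted p = 0.000271). Smoc1, a secreted calcium-binding protein that modulates BMP signalling, had 94.9, 59.3 and 123 on day 0, 1054, 757 and 1889 on day 1, 1133, 1103 and 1598 on day 2, and 809, 782 and 817 on day 4. Mouse 858 was the highest on each day, mouse 814 had less on day 1 than any mouse on day 4, and the contrast was 2.17 ± 0.136 (adjusted p = 1.15e-05). These 3 rose by well over 2-fold and kept part of the rise to day 4.

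For some other large peaks, such as Phxr4 and Chrna4, the range on day 4 overlapped that on day 0. Htr3a and Chd7 stayed above their day 0 level in all 3 mice, and for Egfr the mice differed. Egfr, the receptor for EGF and a marker of activated stem cells and transit-amplifying cells, had 457, 429.9 and 672 on day 0, 2029.7, 2024 and 2274 on day 1, 1537, 1823 and 1116 on day 2, and 673, 738 and 354 on day 4. Every middle value was above every end value, and the contrast was 1.72 ± 0.184 (adjusted p = 0.000204). From day 0 to day 4 Egfr fell in mouse 858, from 672 to 354. In the other mice it ended above its day 0 level, at 673 after 457 and at 738 after 429.9. Phxr4, a long non-coding RNA in RefSeq, had 46.5 to 71.1 on day 0, 114 to 171 on day 1, 148 to 243 on day 2 and 37.9 to 52.0 on day 4, with a contrast of 1.68 ± 0.092 (adjusted p = 1.15e-05). Chrna4, a subunit of the nicotinic acetylcholine receptor, ranged over 72.4 to 107 on day 0, 322 to 636 on day 1, 148 to 432 on day 2 and 83.3 to 125 on day 4. Its contrast was 1.97 ± 0.236 (adjusted p = 0.000394), and in mouse 858 it was back to 148 by day 2. Htr3a, a subunit of the serotonin-gated channel, had 32.3 to 41.3 on day 0, 145 to 421 on day 1, 133 to 186 on day 2 and 95.0 to 149 on day 4, with a contrast of 1.70 ± 0.207 (adjusted p = 0.000423) and an overlap of the groups through the day 4 value of mouse 489. Chd7, a chromatin remodeller, had 445 to 735 on day 0, 1789 to 2249 on day 1, 1923 to 2415 on day 2 and 770.2 to 954 on day 4 and a contrast of 1.57 ± 0.109 (adjusted p = 1.93e-05). The probe set shown for Chd7 is the brightest of 30. The remaining members of the 12 largest were Sncaip, which binds synuclein (1.35 ± 0.113, adjusted p = 6.08e-05), Prag1, a pseudokinase (1.33 ± 0.085, adjusted p = 1.15e-05), Dll1 and Insm1. All 12 were called under every alternative setting.

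**Figure D1:**
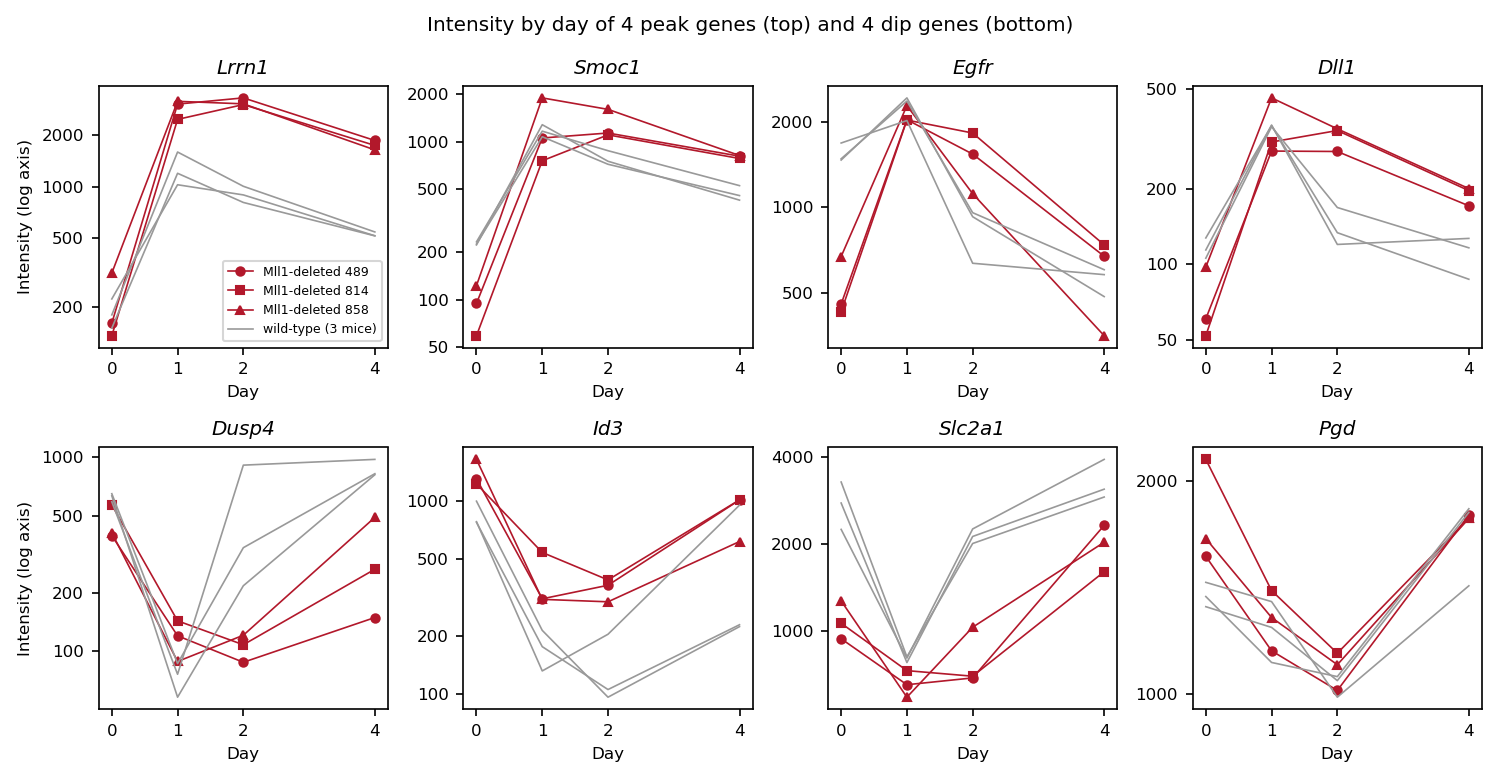
Intensity (log axis) against day for 4 peak genes in the top row and 4 dip genes in the bottom row. Each red line is 1 Mll1-deleted mouse and each grey line 1 wild-type mouse; the Egfr lines of all 3 Mll1-deleted mice are at 2024 to 2274 on day 1, above the 429.9 to 672 of day 0, and the Id3 lines all drop between days 0 and 1.

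Genes of the neurogenic programme peaked in part. Over all genes 8.5% were called higher and 10.6% lower. In the Notch pathway, a ligand on one cell activates a receptor on its neighbour and holds that neighbour as a progenitor. Of 19 measured members 9 were called higher and 2 lower, with a median contrast of 0.32 against -0.033 over all genes (7 and 1 without mouse 489, 6 and 2 without 814, 7 and 2 without 858). The list medians of the mice were 0.072, 0.296 and 0.434, so mouse 489 showed little of it. The ligand Dll1 had 60.5, 51.8 and 97.4 on day 0, 283, 308 and 462 on day 1, 282, 342 and 348 on day 2, and 171, 197 and 201 on day 4. The middle and end days did not overlap, day 4 kept a level above day 0, and the contrast was 1.56 ± 0.11 (adjusted p = 2.06e-05). The receptor Notch2 (1167 to 1352 on day 0, 2142 to 2933 on day 1, 1844 to 2708 on day 2 and 1151 to 1658 on day 4) had a contrast of 0.81 ± 0.094 (adjusted p = 0.000335) and was the only other peak of the list. The receptors Notch3 (0.64 ± 0.079, adjusted p = 0.000455) and Notch1 (0.59 ± 0.112, adjusted p = 0.00401) were called against day 4 but not day 0, and the target Hes5 (0.48 ± 0.12, adjusted p = 0.0158) the other way round. The ligand Jag1 (-1.06 ± 0.168, adjusted p = 0.00165) and the target Hes1 (-0.59 ± 0.096, adjusted p = 0.00182) were called lower. Calls were lost without mouse 489 for Notch1 and Jag1 (adjusted p = 0.0573 and 0.067), without mouse 814 for Hes5 (adjusted p = 0.134) and without the mouse block for Hes5 (adjusted p = 0.192).

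Of 31 neurogenic transcription factors, 8 were called higher and 2 lower, and the median contrast of the list was -0.038, or 0.10 with dim genes left out (4 and 2 without mouse 489, 5 and 0 without 814, 8 and 3 without 858). Insm1, a zinc-finger factor of intermediate progenitors, had 151, 185 and 132 on day 0, 409, 332 and 411 on day 1, 386, 574 and 498 on day 2, and 133, 179 and 148 on day 4. It returned almost exactly to its start, without overlap of middle and end days, and its contrast was 1.48 ± 0.112 (adjusted p = 3.22e-05). Prox1, a homeobox factor, had 74.0 to 93.8 on day 0, 181 to 267 on day 1, 167 to 366 on day 2 and 118 to 167 on day 4 and a contrast of 1.11 ± 0.153 (adjusted p = 0.000808), and was the other peak. The homeobox factors Dlx1 and Dlx2, which direct interneuron fate, had 83.0 to 112 on day 0, 254 to 808 on day 1, 401 to 1212 on day 2 and 310.0 to 846 on day 4 for Dlx1 and 171 to 204 on day 0, 307 to 796 on day 1, 413 to 970.1 on day 2 and 312 to 507 on day 4 for Dlx2. Their contrasts of 1.10 ± 0.251 (adjusted p = 0.0100) and 0.93 ± 0.199 (adjusted p = 0.00726) were called against day 0 only, and the mice differed widely, with 0.79, 0.62 and 1.90 for Dlx1 in mice 489, 814 and 858. The Dlx1 call was lost without mouse 489 (adjusted p = 0.0531) and without the mouse block (adjusted p = 0.0544). Dlx5 (-0.31 ± 0.202, adjusted p = 0.329) and Pou3f4, a POU-domain factor also known as Brn4 (0.35 ± 0.129, adjusted p = 0.0782), were not called.

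The 20 stem cell markers had a median contrast of 0.18, with 8 called higher and 3 lower (3 and 1 without mouse 489, 4 and 0 without 814, 9 and 4 without 858). Beside Egfr, the RNA-binding protein Msi1 (338 to 799 on day 0, 639 to 937 on day 1, 877 to 1046 on day 2 and 377 to 513 on day 4, contrast 0.80 ± 0.144, adjusted p = 0.00306) and the patterning factor Pax6 (0.30 ± 0.074, adjusted p = 0.015) were peaks. The surface protein Prom1 (-0.37 ± 0.084, adjusted p = 0.00977) was a dip. Sox9, a factor of stem cells and astrocytes, had 1081 to 1451 on day 0, 1918 to 2895 on day 1, 2599 to 3418 on day 2 and 2509.8 to 2706 on day 4. It stayed up on day 4, and its contrast was 0.49 ± 0.091 (adjusted p = 0.00363). The calls of Pax6 and Prom1 were lost without mouse 489 (adjusted p = 0.141 and 0.13) and without mouse 814 (adjusted p = 0.184 and 0.0609).

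The promoter of Dll1 is shown because Dll1 was the largest peak with a role in the Notch pathway and holds an E-box, CAGCTG, the letters that proneural bHLH factors can bind. The 250 bases before its annotated start are chr17:15376933-15377182 on the minus strand of GRCm38.p6 in RefSeq, and the motif, in capitals, begins 132 bases before the start.
Dll1: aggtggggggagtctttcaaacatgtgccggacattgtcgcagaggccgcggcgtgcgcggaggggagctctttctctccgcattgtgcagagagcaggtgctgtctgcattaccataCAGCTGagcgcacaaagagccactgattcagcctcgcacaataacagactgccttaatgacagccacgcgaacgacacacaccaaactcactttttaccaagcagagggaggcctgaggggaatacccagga
CAGCTG reads the same on both strands and was in 16.3% of 32851 promoters of 300 bases (250 before to 50 after a start). It was in 4 of the 9 called Notch members with a promoter entry (Dll1, Dll3, Jag1 and Nrarp) and in 3 of 8 called neurogenic factors. By gene it was in 22.9% of the peaks and 19.0% of the dips with an entry, against 18.3% of all genes. A match describes letters only.

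Single members of several signalling and housekeeping groups rose in the middle, where 8.5% of all genes were called higher. Immediate early genes respond to stimuli within minutes. Of 24, 4 were called higher, 3 of them peaks, and 2 lower (3 and 0 without mouse 489, 4 and 0 without 814, 3 and 3 without 858), and the median contrast was 0.018, with -0.11 in mouse 814. Egr1, a zinc-finger factor, had 123, 96.5 and 128 on day 0, 281, 189 and 233 on day 1, 468, 366 and 303 on day 2, and 174, 200.01 and 135 on day 4. Day 2 was the highest day in every mouse, mouse 814 on day 1 overlapped the end days, and the contrast was 1.08 ± 0.123 (adjusted p = 0.000295). The contrasts of Egr2 (0.85 ± 0.121, adjusted p = 0.000915) and Btg2, an antiproliferative gene and p53 target (1.09 ± 0.12, adjusted p = 0.000248), were of the same kind. Fos was called higher (0.44 ± 0.137, adjusted p = 0.0423) against day 0 only, a call lost without mouse 489 (adjusted p = 0.251), without mouse 858 (adjusted p = 0.0908) and without the mouse block (adjusted p = 0.102).

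Among 15 subunits of MLL and related H3K4 methyltransferase complexes, 7 were called higher and none lower, with a median contrast of 0.15 (4, 6 and 7 higher without mouse 489, 814 and 858). Kmt2c, the catalytic subunit MLL3, had 344, 299.6 and 381 on day 0, 676, 569.7 and 556 on day 1, 607, 642 and 586 on day 2, and 355, 345 and 295 on day 4. All middle values exceeded all end values, and the contrast was 0.85 ± 0.084 (adjusted p = 0.000149). The demethylase Kdm6a (0.50 ± 0.097, adjusted p = 0.0046), the methyltransferase Setd1b (0.50 ± 0.099, adjusted p = 0.00488) and the coactivator Ncoa6 (0.48 ± 0.071, adjusted p = 0.0012) were also peaks. Kmt2b (0.40 ± 0.066, adjusted p = 0.00206) and Hcfc1 (0.36 ± 0.075, adjusted p = 0.00641) were called, like Kmt2a, against day 4 only. The wild-type median of the list was 0.17. The calls of Kdm6a and Hcfc1 were lost without mouse 489 (adjusted p = 0.0806 and 0.0517), without mouse 814 for Hcfc1 (adjusted p = 0.112) and without the mouse block for Kdm6a (adjusted p = 0.101).

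FoxO factors become active when growth factor signalling stops. Of 23 genes of this response, 6 were called higher and 3 lower (2, 7 and 6 higher without mouse 489, 814 and 858). Bcl2l11, which encodes the cell death protein Bim, had 210.1 to 279.8 on day 0, 519 to 623 on day 1, 334 to 508 on day 2 and 205 to 319 on day 4 and a contrast of 0.99 ± 0.094 (adjusted p = 0.000119). Sesn3, a stress-induced inhibitor of mTORC1, had 1194 to 1313 on day 0, 2695 to 3015 on day 1, 2010.5 to 2192 on day 2 and 1812 to 1949.7 on day 4 and a contrast of 0.67 ± 0.068 (adjusted p = 0.000152). Neither overlapped between middle and end days. Txnip, which limits glucose uptake, had a contrast of 0.88 ± 0.143 (adjusted p = 0.0018), with 0.85, 0.41 and 1.38 in the 3 mice. Its call was lost without mouse 489 (adjusted p = 0.0504). Of 22 lysosome and autophagy genes 7 were called higher and 1 lower (2, 7 and 4 higher without mouse 489, 814 and 858), with the autophagy kinase Ulk1 (0.48 ± 0.086, adjusted p = 0.00312), the cholesterol exporter Npc1 (0.45 ± 0.065, adjusted p = 0.00102) and Lamp1 (0.32 ± 0.073, adjusted p = 0.0103) as peaks. Of these, Lamp1 was lost without mouse 489 (adjusted p = 0.13) and without mouse 858 (adjusted p = 0.0735). Among 18 Wnt genes, 7 were called higher and 3 lower (1 and 1 without mouse 489, 4 and 3 without 814, 5 and 4 without 858), with a median contrast of 0.039. Apcdd1, a membrane inhibitor of Wnt signalling, was the peak, with 219 to 261 on day 0, 593 to 709 on day 1, 413 to 714 on day 2 and 228 to 343 on day 4 and a contrast of 1.18 ± 0.105 (adjusted p = 8.37e-05).

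The largest dips included members of the lists of EGF and FGF targets and of BMP and TGF-beta targets. The counts of this and the following lists stand beside 10.6% of all genes called lower and 8.5% called higher. Dusp4, a phosphatase that feeds back on ERK signalling, had the largest, with 395, 569 and 408 on day 0, 120.3, 144 and 88.7 on day 1, 87.9, 108 and 121 on day 2, and 149, 265 and 491 on day 4. The middle values all lay below the end values, mouse 858 came back fully and mouse 489 hardly, and the contrast was -1.66 ± 0.21 (adjusted p = 0.000504). Of 24 EGF and FGF targets 9 were called lower and none higher, with a median of -0.35 (4, 10 and 11 lower without mouse 489, 814 and 858). Dusp4 was the only dip among them. The other 8, such as the stress gene Ier3 (287 to 360.5 on day 0, 80.3 to 94.1 on day 1, 85.2 to 106 on day 2 and 90.2 to 114 on day 4, contrast -1.01 ± 0.064, adjusted p = 1.15e-05) and the ERK feedback inhibitor Spry4 (-0.88 ± 0.139, adjusted p = 0.00166), were called against day 0 only and stayed low on day 4. The Spry4 call was lost without mouse 489 (adjusted p = 0.0701).

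BMP and TGF-beta signals act through Smad proteins and induce the Id genes, which block proneural factors. Of 20 targets 12 were called lower and none higher, with a median of -0.52 (4, 8 and 13 lower without mouse 489, 814 and 858, and 1 higher without 814). Id3 had 1305, 1229 and 1645 on day 0, 312, 543 and 310.4 on day 1, 367, 391 and 301 on day 2, and 1014, 1016 and 618 on day 4. All middle values lay below all end values, and the contrast was -1.59 ± 0.15 (adjusted p = 0.000119). Id1 had 1304, 1294 and 1065 on day 0, 306, 318 and 199 on day 1, 399, 466 and 219 on day 2, and 563, 451 and 274 on day 4. Mouse 858 ended at 274, below the day 1 values of the other mice, and the contrast was -1.22 ± 0.105 (adjusted p = 7.45e-05). The inhibitory Smad6 (-0.72 ± 0.119, adjusted p = 0.00195) and the signal transducer Smad9 (-0.56 ± 0.113, adjusted p = 0.00537) were the remaining dips. Atoh8, a bHLH factor, was called against day 0 only (-0.96 ± 0.088, adjusted p = 0.000102), and Bmp4 itself against day 4 only (-0.96 ± 0.227, adjusted p = 0.0118). By mouse, the list median was -0.65, -0.63 and -0.24, with the smallest size in mouse 858. Among these genes calls were lost without mouse 489 for Smad6, Smad9 and Bmp4 (adjusted p = 0.0569, 0.12 and 0.168) and without mouse 814 for Smad9 (adjusted p = 0.0764).

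Other large dips were spread over functions. Tm4sf1, a tetraspan membrane protein, had 2248 to 3479.5 on day 0, 400.4 to 1105 on day 1, 697 to 1033 on day 2 and 1471 to 1809 on day 4 and a contrast of -1.45 ± 0.137 (adjusted p = 0.000119). Gap43, a growth cone protein, had 994, 1999 and 1739.8 on day 0, 519, 676 and 706 on day 1, 582, 576 and 846 on day 2, and 1305, 1161 and 1953 on day 4. Every middle value was below every end value, and the contrast was -1.20 ± 0.132 (adjusted p = 0.000247). Rapgef4, a cAMP-activated exchange factor for Rap, had 191 to 288 on day 0, 55.7 to 74.6 on day 1, 50.9 to 72.8 on day 2 and 91.2 to 105 on day 4 and a contrast of -1.18 ± 0.122 (adjusted p = 0.000164). The galactose-binding lectin Lgals3 (-1.14 ± 0.208, adjusted p = 0.00328), the vitamin B6 kinase Pdxk (-1.03 ± 0.078, adjusted p = 3.22e-05), the actin cross-linker Actn4 (-0.99 ± 0.113, adjusted p = 0.000296) and the kinase Stk32a (-0.99 ± 0.1, adjusted p = 0.000158) also dipped. Of the 12 largest dips only Lgals3 was lost under an alternative, without mouse 489 (adjusted p = 0.0824).

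NRF2 is the transcription factor of the antioxidant response, and its targets supply glutathione, reduce thioredoxin and feed the pentose phosphate pathway that makes NADPH. Of 19 measured targets, 12 were called lower and none higher, and 6 were dips, where 2.17% of all genes were. The median contrast was -0.34, with -0.41, -0.35 and -0.33 in the 3 mice. Without mouse 489, 2 were called lower, where 389 of all 21048 genes were. Without 814 it was 8, with 1 member called higher, and without 858 it was 12. Pgd, a dehydrogenase of the pentose phosphate pathway, had 1564, 2145 and 1658 on day 0, 1150.4, 1399.5 and 1282 on day 1, 1011, 1141 and 1099 on day 2, and 1789.9, 1772 and 1770.0 on day 4. Each mouse was lowest on day 2, the day 4 values of the mice were nearly equal, and the contrast was -0.60 ± 0.074 (adjusted p = 0.000469). Srxn1, which repairs oxidised peroxiredoxins, had 525, 537 and 446 on day 0, 338, 308 and 291 on day 1, 401, 306 and 472 on day 2, and 717, 535 and 645 on day 4, with an overlap through mouse 858 on day 2 and a contrast of -0.69 ± 0.103 (adjusted p = 0.00122). Taldo1, of the same pathway as Pgd, had 446 to 457 on day 0, 339 to 347 on day 1, 294 to 346 on day 2 and 401 to 485 on day 4 and a contrast of -0.43 ± 0.07 (adjusted p = 0.00181). The glutathione synthesis subunit Gclm (1156 to 1272 on day 0, 782 to 946 on day 1, 889 to 1089 on day 2 and 1132 to 1399.5 on day 4) had -0.41 ± 0.088 (adjusted p = 0.0073), the thioredoxin reductase Txnrd1 (1006 to 1414 on day 0, 762 to 1037 on day 1, 748 to 829.6 on day 2 and 1139 to 1297 on day 4) had -0.56 ± 0.094 (adjusted p = 0.00214), and G6pdx, the entry enzyme of the pathway (1961 to 2314 on day 0, 1686 to 1745 on day 1, 1413 to 1602 on day 2 and 2091 to 2618 on day 4), had -0.43 ± 0.081 (adjusted p = 0.00379). Nqo1 had the lowest contrast of the list (-1.14 ± 0.222, adjusted p = 0.00481) but was called against day 0 only. Of the genes named, Pgd and Txnrd1 kept their call throughout, and calls were lost without mouse 489 for Srxn1, Taldo1, Gclm, G6pdx and Nqo1 (adjusted p = 0.0528, 0.0517, 0.114, 0.063 and 0.0886) and without mouse 814 for Gclm (adjusted p = 0.0501).

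The promoters of 3 of these dips are shown because they hold the core of the antioxidant response element, TGACNNNGC on either strand, to which NRF2 binds. Each is the 250 bases before the RefSeq start in GRCm38.p6, 5′ to 3′ on the strand of the gene, with the match in capitals. Gclm is chr3:122245307-122245556 on the plus strand with the match from 134 bases before the start, Txnrd1 is chr10:82858956-82859205 on the plus strand (92 bases) and G6pdx is chrX:74428881-74429130 on the minus strand (57 bases).
Gclm: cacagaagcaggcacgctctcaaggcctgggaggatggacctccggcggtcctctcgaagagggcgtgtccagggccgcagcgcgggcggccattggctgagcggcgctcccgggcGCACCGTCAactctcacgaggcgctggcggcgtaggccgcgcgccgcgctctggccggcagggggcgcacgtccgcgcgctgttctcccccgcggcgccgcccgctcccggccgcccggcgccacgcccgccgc
Txnrd1: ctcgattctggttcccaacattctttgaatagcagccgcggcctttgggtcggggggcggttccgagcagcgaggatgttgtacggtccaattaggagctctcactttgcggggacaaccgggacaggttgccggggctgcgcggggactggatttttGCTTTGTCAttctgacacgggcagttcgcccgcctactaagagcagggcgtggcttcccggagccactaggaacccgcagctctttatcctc
G6pdx: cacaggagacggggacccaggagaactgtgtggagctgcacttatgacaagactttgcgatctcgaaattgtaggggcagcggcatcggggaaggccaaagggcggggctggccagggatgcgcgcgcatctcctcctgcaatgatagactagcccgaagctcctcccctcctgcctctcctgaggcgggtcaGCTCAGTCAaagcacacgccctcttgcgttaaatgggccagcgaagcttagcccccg
In all 3 the match is on the reverse strand, so the capitals are the reverse complement of the motif. The core was in 12.4% of the 32851 promoters and, by gene, in 14.0% of all genes, 13.8% of the peaks and 19.8% of the dips with an entry. Of 14 measured NRF2 targets with an entry it was in 7, and of the 9 called ones in 5 (Gclm, Txnrd1, Srxn1, G6pdx and Pgd).

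Cholesterol and fatty acid synthesis, controlled by SREBP factors, had 16 of 32 members called lower and 2 higher, with a median of -0.35 (2, 14 and 14 lower without mouse 489, 814 and 858). Msmo1, a sterol oxidase, had 2047 to 2942 on day 0, 1338 to 2615 on day 1, 1132 to 1664 on day 2 and 3052 to 3202 on day 4 and a contrast of -0.81 ± 0.122 (adjusted p = 0.00131), with its highest level on day 4. The sterol enzyme Hsd17b7 (-0.90 ± 0.205, adjusted p = 0.00997) and the mevalonate pathway enzymes Fdps (-0.66 ± 0.138, adjusted p = 0.00672) and Pmvk (-0.49 ± 0.081, adjusted p = 0.00194) were dips as well. Srebf1, a gene of the controlling factors, was called against day 4 only (-0.46 ± 0.073, adjusted p = 0.00164). The list medians of the mice were -0.49, -0.11 and -0.41, with the smallest in mouse 814, in which the median of day 1 lay above that of day 0. The desaturases Fads1 (0.45 ± 0.098, adjusted p = 0.00813) and Fads2 (0.30 ± 0.08, adjusted p = 0.0216) were the 2 higher members. Srebf1 was called throughout, whereas calls were lost without mouse 489 for Msmo1, Hsd17b7, Fdps, Pmvk, Fads1 and Fads2 (adjusted p = 0.0552, 0.136, 0.143, 0.0709, 0.0506 and 0.108), without mouse 814 for Fads2 (adjusted p = 0.0956), without mouse 858 for Fads2 (adjusted p = 0.0975) and without the mouse block for Fads1 and Fads2 (adjusted p = 0.0544 and 0.145). The letters TCACNCCAC, a form of the sterol response element, were in 1 of the 21 members with a promoter entry and in 1.24% of all promoters.

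Glycolysis and hypoxia genes had 11 of 24 called lower and 1 higher, with a median of -0.31 (6, 7 and 10 lower without mouse 489, 814 and 858). The glucose transporter Slc2a1 had 942, 1066 and 1273 on day 0, 654, 731 and 592 on day 1, 689.9, 699 and 1033 on day 2, and 2322, 1606 and 2031 on day 4. Day 4 was above day 0 in all 3 mice, mouse 858 on day 2 overlapped day 0, and the contrast was -1.02 ± 0.122 (adjusted p = 0.000398). Lactate dehydrogenase Ldha had 6193 to 7168 on day 0, 3992 to 5192 on day 1, 3062 to 3659 on day 2 and 4536 to 5005 on day 4 and a contrast of -0.56 ± 0.08 (adjusted p = 0.000915). The carbonic anhydrase Car9 (-0.73 ± 0.187, adjusted p = 0.0186) and the phosphofructokinase Pfkl (-0.63 ± 0.096, adjusted p = 0.00133) were dips too, whereas hexokinase Hk2 (-1.04 ± 0.142, adjusted p = 0.000768) was called against day 0 only. The demethylase Kdm3a was a peak (0.48 ± 0.074, adjusted p = 0.00142). Only Car9 of these was lost, without mouse 489 (adjusted p = 0.0531) and without mouse 814 (adjusted p = 0.122).

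The unfolded protein response, which the endoplasmic reticulum starts under load, had 8 of 20 called lower and 1 higher (5, 7 and 8 lower without mouse 489, 814 and 858). Xbp1, its transcription factor, had 417 to 562 on day 0, 264 to 319 on day 1, 272 to 321 on day 2 and 381 to 443 on day 4 and a contrast of -0.60 ± 0.083 (adjusted p = 0.000824), without overlap, and the chaperones Hyou1 (-0.59 ± 0.092, adjusted p = 0.00153) and Dnajc3 (-0.32 ± 0.067, adjusted p = 0.00623) dipped with it. The cochaperone Dnajb9 was a peak (0.58 ± 0.085, adjusted p = 0.00109). Of 28 genes of the amino acid response through ATF4, 8 were called lower and 1 higher (0, 4 and 6 lower without mouse 489, 814 and 858). The proline synthesis enzymes Aldh18a1 (-0.28 ± 0.07, adjusted p = 0.0151) and Pycr1 (-0.34 ± 0.078, adjusted p = 0.0107) were the dips. Ribosome biogenesis had 8 of 25 lower and none higher (2, 4 and 4 lower without mouse 489, 814 and 858), with Rrp9 (-0.47 ± 0.08, adjusted p = 0.00242) and Rrp12 (-0.37 ± 0.077, adjusted p = 0.00653) as dips. In wild-type cultures 9 unfolded protein response, 18 ATF4 and 18 ribosome biogenesis genes were called lower, where 13.3% of all genes were. Across these 3 lists calls were lost without mouse 489 for Dnajc3, Aldh18a1, Pycr1 and Rrp12 (adjusted p = 0.103, 0.135, 0.182 and 0.0783), without mouse 814 for Dnajc3 and Aldh18a1 (adjusted p = 0.0527 and 0.0725) and without mouse 858 for Aldh18a1 (adjusted p = 0.0687).

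**Figure D2:**
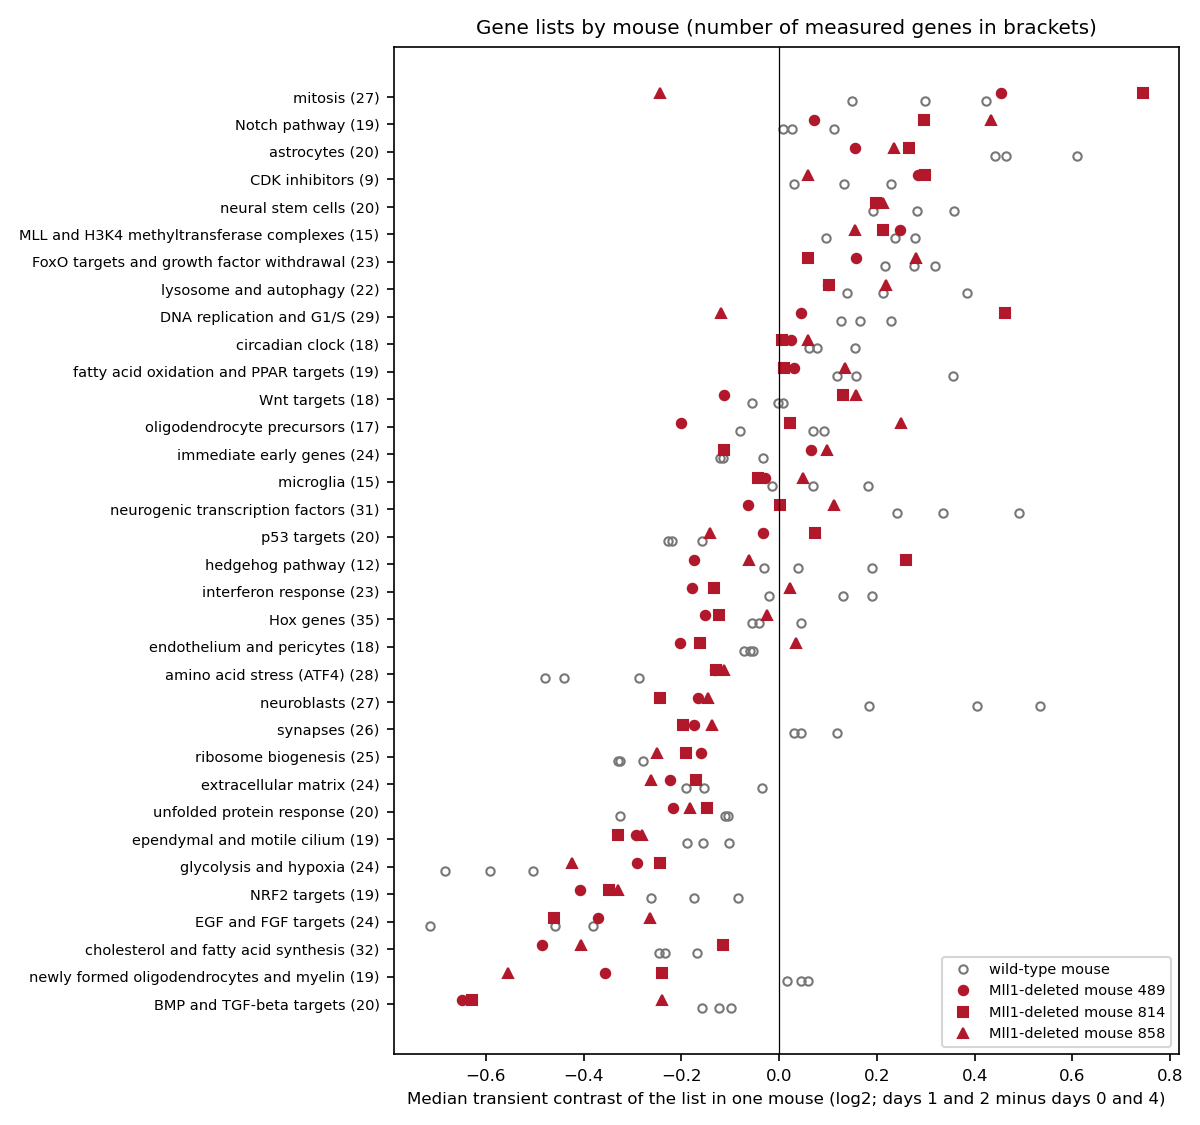
Median transient contrast (log2) of each of the 34 gene lists in each mouse, with lists ordered by the Mll1-deleted median of the fit and the number of measured genes in brackets. Filled red symbols are Mll1-deleted mice and open grey circles wild-type mice; the 19 NRF2 targets lie at -0.41 to -0.33 in the Mll1-deleted mice, and the 27 mitosis genes at 0.45 and 0.74 in mice 489 and 814 but at -0.24 in mouse 858.

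Other called groups were steps, not passing changes. Of 19 ependymal and motile cilium genes 8 were called, all lower than day 4 only (6, 5 and 8 without mouse 489, 814 and 858). The cilium component Rsph1 had 100.3, 95.8 and 111 on day 0, 99.3, 93.3 and 110.1 on day 1, 118, 126 and 186 on day 2, and 427, 652 and 849 on day 4. Only day 4 was high, in every mouse, and its contrast was -1.08 ± 0.11 (adjusted p = 0.000162). The early oligodendrocyte gene Bcas1 had 17.8 to 24.6 on day 0, 23.4 to 32.3 on day 1, 25.7 to 75.6 on day 2 and 169 to 903 on day 4. Days 0 and 1 were near the floor, and the contrast of -1.53 ± 0.216 (adjusted p = 0.000908) rested on day 4, its call being lost without mouse 489 (adjusted p = 0.0531). Extracellular matrix genes had 7 of 24 called lower, all against day 0 only (3, 7 and 7 without mouse 489, 814 and 858, with 3 called higher without 858). Timp1, an inhibitor of matrix proteases, had 660.5 to 3153 on day 0, 111 to 322 on day 1, 123 to 293 on day 2 and 127 to 226 on day 4 and a contrast of -1.35 ± 0.14 (adjusted p = 0.000167). The oligodendrocyte precursor receptor Pdgfra had 75.7 to 272 on day 0, 536 to 1334 on day 1, 923 to 1709 on day 2 and 1622 to 1796 on day 4. It was called higher against day 0 and lower against day 4, with a contrast of 1.04 ± 0.189 (adjusted p = 0.00325) that was lost without mouse 489 (adjusted p = 0.0664).

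Mitosis genes depended on which mice were taken. Of 27, 3 were called higher (Mki67, Ccna2 and Foxm1), all against day 4 only. All 3 were lost without mouse 489 (adjusted p = 0.142, 0.162 and 0.14) and without mouse 814 (0.103, 0.111 and 0.139). Without mouse 858, 23 of the 27 were called higher. Mki67, a marker of dividing cells, had 1141, 1049 and 1516 on day 0, 1221, 1761 and 591 on day 1, 655, 1013 and 878 on day 2, and 228, 297 and 184 on day 4. On day 1 mouse 858 was well below its own day 0, mouse 814 was above, and mouse 489 hardly differed, and all 3 were low on day 4. Its contrast was 0.84 ± 0.207 (adjusted p = 0.015). The contrast was above 0 in 26 and 27 of the 27 genes in mice 489 and 814, and in 6 in mouse 858. Of 29 DNA replication genes 1 was called higher, and without mouse 858 it was 7. On day 1 the mitosis median of mouse 858, -1.46 relative to day 0, was nearer to the wild-type mice (-0.93, -1.41 and -1.18) than to mice 489 and 814. Its median contrast of -0.24 lay below the 0.148 to 0.423 of the wild-type mice. What sets mouse 858 apart from mice 489 and 814 is not given in the labels and was not tested.

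**Figure D3:**
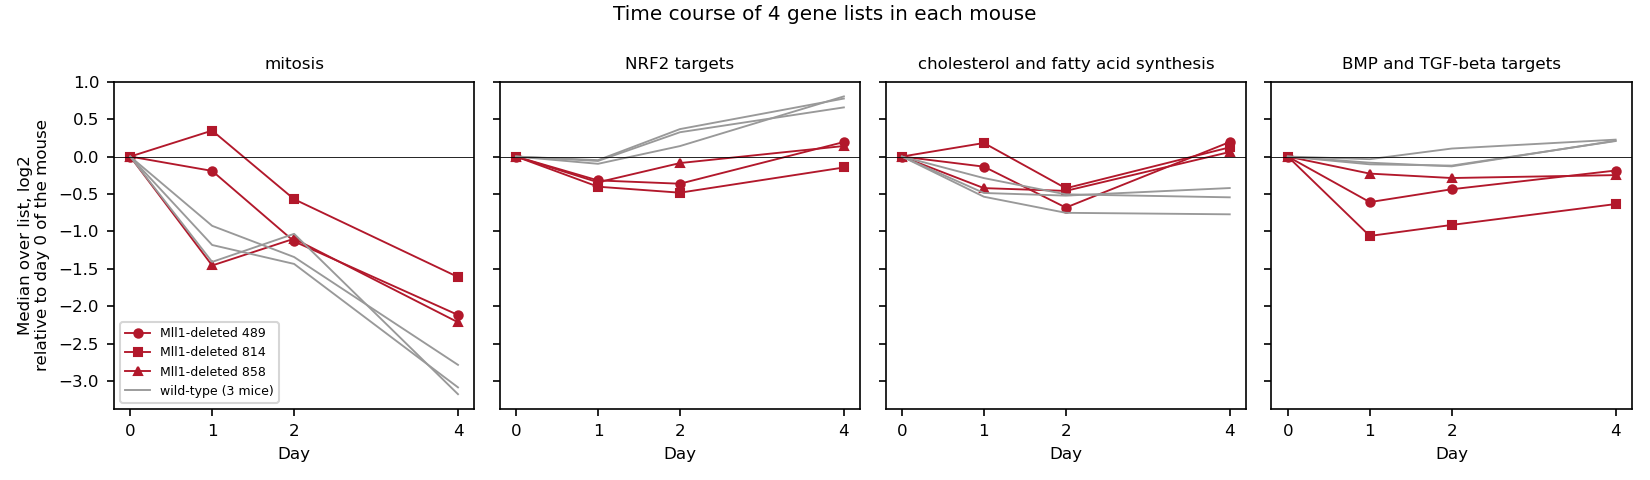
Median log2 intensity of 4 gene lists on each day relative to day 0 of the same mouse. Red lines are the Mll1-deleted mice and grey lines the 3 wild-type mice; in the mitosis panel mouse 858 is at -1.46 on day 1 where mice 489 and 814 are at -0.19 and 0.35, and in the NRF2 panel all 3 Mll1-deleted mice are below 0 on days 1 and 2 (from -0.48 to -0.087).

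The wild-type cultures had their own passing genes, and most of those in the Mll1-deleted cultures were among the genes called there. In wild-type, 5623 genes (26.7%) had a called contrast, 2819 higher (13.4%) and 2804 lower (13.3%), with 853 peaks (4.05%) and 484 dips (2.3%). Without mouse 870 it was 3481. Of the 539 Mll1-deleted peaks, 429 (79.6%) were called higher in wild-type, 256 were peaks there, and 3 were called lower. Of the 457 dips, 331 (72.4%) were called lower in wild-type, 147 were dips there, and 1 was called higher. The genes called in both genotypes in the same direction, 2499, are 62.2% of the Mll1-deleted and 44.4% of the wild-type calls, and 50 were called in opposite directions.

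The test of the difference between the genotypes called 705 genes (3.35%), 279 with a higher (1.33%) and 426 with a lower contrast (2.02%) in Mll1-deleted cultures. Among the peaks 40 were called and among the dips 13. Higher contrasts were 39.6% of these, and 54.3% of 698 when each array was shifted to one median. The number depended on single mice: without 818 it was 273, without 870 it was 232, without 489 it was 222, without 814 it was 298, and without 858 it was 1453.

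Of the peaks, Car3, a carbonic anhydrase, differed most. In Mll1-deleted cultures it had 72.3, 39.4 and 127 on day 0, 221, 171 and 208 on day 1, 115, 124 and 94.8 on day 2, and 78.5, 54.4 and 50.5 on day 4, and in wild-type mice 818, 862 and 870 it had 529, 257 and 384 on day 0, 144, 90.4 and 123 on day 1, 51.3, 46.0 and 55.7 on day 2, and 71.9, 56.4 and 50.6 on day 4. The genotypes thus moved in opposite directions from day 0, with contrasts of 1.18 ± 0.208 and -0.95 ± 0.111 and a difference of 2.13 ± 0.257 (adjusted p = 0.000194), which held under every alternative. The Mll1-deleted call alone was lost without mouse 489 (adjusted p = 0.0667). Egfr had 1681, 1479.9 and 1465 on day 0, 2016, 2360.4 and 2422 on day 1, 636, 957 and 926 on day 2, and 580.0, 604 and 486 on day 4 in wild-type. There the rise on day 1 started from a higher day 0 and had gone by day 2, and the contrasts differed by 1.15 ± 0.229 (adjusted p = 0.00709), lost without mouse 818 (adjusted p = 0.081). Insm1 had wild-type means of 109, 622, 474 and 126 and a contrast of 2.21 ± 0.099, so its peak was larger there, by a difference of -0.73 ± 0.158 (adjusted p = 0.0126). That call was lost without mouse 489, 814, 818 or 870 (adjusted p = 0.0568, 0.0664, 0.0515 and 0.066). For Lrrn1 and Dll1 the difference was not called, at 0.59 ± 0.194 (adjusted p = 0.109) and 0.56 ± 0.163 (adjusted p = 0.0645).

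Among the 6 lowest differences were those of the neuronal genes Dcx, Dlx5 and Tubb3. Dcx, a microtubule protein of neuroblasts, had 29.9, 22.2 and 21.1 on day 0, 60.4, 41.5 and 86.4 on day 1, 90.8, 271 and 879 on day 2, and 300.0, 881 and 1624 on day 4 in Mll1-deleted cultures. It was highest on day 4 in each mouse, so its contrast was -0.060 ± 0.379. In wild-type it had 35.4, 38.8 and 30.6 on day 0, 513, 262 and 314 on day 1, 2563, 2040.4 and 2084 on day 2, and 1592, 1179.8 and 1387 on day 4, with a contrast of 2.01 ± 0.111 and a difference of -2.07 ± 0.436 (adjusted p = 0.0105), lost without mouse 814, 818 or 870 (adjusted p = 0.0772, 0.086 and 0.0866) and without the mouse block (0.068). Tubb3, a neuronal tubulin, had Mll1-deleted means of 558, 429, 675 and 1053 and wild-type means of 220.0, 612, 2154 and 889.9, and a difference of -1.89 ± 0.24 (adjusted p = 0.00026). Dlx5 had means of 49.9, 54.7, 214 and 361 against 54.0, 263, 1011 and 457 and a difference of -2.02 ± 0.272 (adjusted p = 0.000428), and both of these held under every alternative. Over the 27 neuroblast genes the median contrast was -0.15 in Mll1-deleted and 0.41 in wild-type cultures, 8 members differed, all lower, 15 were called higher in wild-type, and 2 higher and 8 lower in Mll1-deleted cultures (2 and 3 without mouse 489 or 814, 3 and 10 without 858). Over the 31 neurogenic factors 7 differed, all lower, and over the 19 genes of newly formed oligodendrocytes and myelin 6 did, also all lower. In the oligodendrocyte list a lower contrast did not mean lower expression. Its median on day 4 relative to day 0 was 1.304, 0.835 and 2.192 in the Mll1-deleted mice. In wild-type mice 818, 862 and 870 it was 0.249, 0.024 and 0.163.

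Growth factor targets differed in the other direction. The cell cycle gene Ccnd1 had means of 10528, 3738, 2419 and 1584 in Mll1-deleted and 10672, 898, 873 and 1148 in wild-type cultures. The loss on day 1 was steeper in wild-type, and the contrasts differed by 1.54 ± 0.206 (adjusted p = 0.000406). Ier3 differed by 1.18 ± 0.12 (adjusted p = 6.81e-05) and Spry4 by 1.00 ± 0.172 (adjusted p = 0.0025), and 8 of the 24 members of the list had a higher contrast in Mll1-deleted cultures, with medians of -0.35 and -0.55. In the glycolysis and hypoxia list 6 differed, all higher, with medians of -0.31 and -0.57. No member of the NRF2 or the cholesterol list differed by this test, and their wild-type medians were -0.13 and -0.22. The list medians relative to day 0 still took different courses, which was not tested. For NRF2 targets they were 0.14 to 0.367 on day 2 and 0.657 to 0.804 on day 4 in wild-type mice. In Mll1-deleted mice they were -0.483 to -0.087 and -0.146 to 0.194. For cholesterol genes on day 4 they were -0.772 to -0.421 in wild-type and 0.061 to 0.194 in Mll1-deleted mice.

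**Figure D4:**
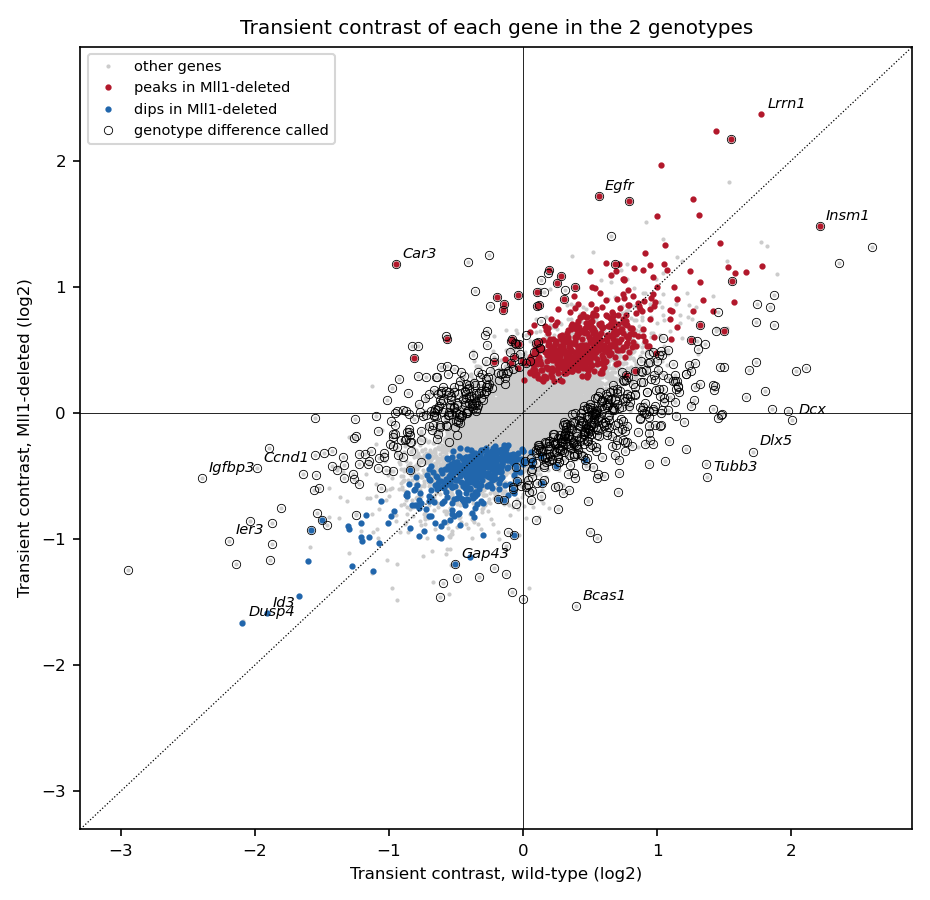
Transient contrast (log2) of each gene in wild-type (horizontal axis) and Mll1-deleted cultures (vertical axis), with peaks in red, dips in blue, genes whose contrasts differed between the genotypes circled, and equality dotted. Lrrn1, at 2.37 in Mll1-deleted and 1.77 in wild-type cultures, lies at the top right, and Dcx, at -0.060 and 2.01, far below the line of equality.

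Peaks and dips differed in a property that took no part in their choice, the length of the gene in RefSeq. The median length was 66.8 kb for the 524 peaks with a length, 14.4 kb for 456 dips and 17.4 kb for all 20366 genes, and 33.4%, 7.0% and 11.6% were over 100 kb. Peaks were also brighter, with a median mean intensity of 341.5 against 100.7 for all genes and 321 for the dips. Among genes brighter than the median gene the lengths were 71.3 kb for peaks, 14.3 kb for dips and 25.2 kb for all. Among dimmer genes they were 25.1 kb for 72 peaks, 14.8 kb for 53 dips and 10.6 kb for all, so dips there were not shorter than all genes. The share of genes that were peaks was 0.89% up to 10 kb, 1.53% from 10 to 30 kb, 4.03% from 30 to 100 kb, 7.87% from 100 to 300 kb and 5.9% above. The share of dips was highest from 10 to 30 kb, at 3.05%, and lowest above 300 kb, at 0.55%. Wild-type peaks, at a median of 52.6 kb, were also longer than wild-type dips, at 18.1 kb, but those dips were not shorter than the 17.4 kb of all genes. No test of the length was run.

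**Figure D5:**
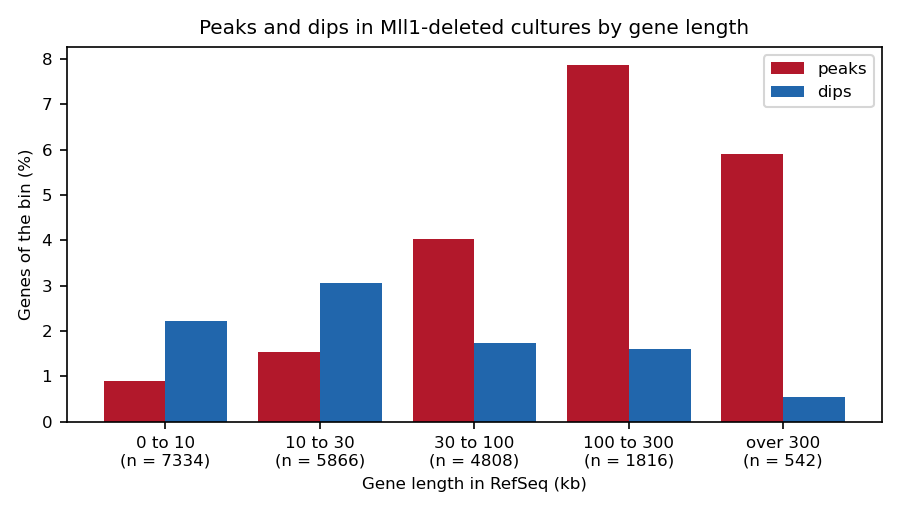
Share of genes (%) that were peaks (red) or dips (blue) in the Mll1-deleted cultures, by length of the gene in RefSeq (kb), with the number of genes per bin in brackets. Peaks make up 0.89% of genes up to 10 kb and 7.87% of those of 100 to 300 kb.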

How the data were processed

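RNA of 24 samples, from cultures of 6 mice on 4 days and each on 1 Affymetrix array, was analysed from the deposited table of 28350 probe sets. The authors made these intensity values with RMA in Affymetrix Power Tools with genome build mm9, per the submitters' processing notes, whose versions are not given in the sources used here. The deposited intensities run from 3.4841 to 30297.9, so they were read as linear and log2 was taken here. RMA normalises all arrays together, so a change shared by most genes of an array is removed. A deposited code per probe set, which the file does not explain, was read as marking possible cross-hybridisation unless it was 1.

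Of the probe sets 22232 carried 1 gene symbol, 2980 several and 3138 none. Another 25 symbols that a spreadsheet had turned into dates were left out, 2126 were updated through RefSeq, and 725 were not found there. The brightest probe set stood for each of 575 genes that had more than 1, which left 21048 genes.

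A linear model in limma 3.58.1 (R 4.3.3) was fitted to the log2 values of the 12 Mll1-deleted arrays, with a mean per day and the mouse as a block, and p-values were adjusted by Benjamini-Hochberg over 21048 genes. The wild-type arrays were fitted alike, and the difference between the genotypes was fitted on all 24 arrays. The block rests on the mouse number in the labels. Arrays of the same Mll1-deleted mouse deviated together from their day means in 18 of 18 pairs (correlation over 0.1, median 0.31), and in 16 of 18 wild-type pairs (median 0.22). No 2 arrays held identical values. The number of arrays limits the precision. The fit was tested on simulated data with known changes.

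Named genes are the 12 largest peaks and the 12 largest dips, up to 3 called members of each of 34 gene lists by smallest p, the 6 largest genotype differences in each direction, and Kmt2a, Pou3f4, Dlx1, Dlx2 and Dlx5. Further list members were named after their values were seen, and a few genes are not reported here. The members and lists were chosen with earlier results of these data known. The near-floor intensity of 25.78, the mean lower quartile of the arrays, serves as a description. Promoters and gene lengths come from RefSeq GRCm38.p6, matched by symbol. Figures were drawn with matplotlib 3.10.9. Alternatives were the fit without the block, dim genes left out, arrays shifted to one median, probe sets of cross-hybridisation code 1 only, the mean of a gene's probe sets, a variance prior with an intensity trend, 1 value per mouse, all 24 arrays, and each mouse left out.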

Additional observations from a re-analysis of the deposited data

Results flagged for a closer look

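The contrast between the middle and the end days differed between the Mll1-deleted and the wild-type cultures, by limma's test of the difference itself on 24 arrays, for 29 of the named genes reported here. Each value here is the Mll1-deleted minus the wild-type contrast (log2, 3 mice each), with adjusted p from 6.81e-05 for Ier3 to 0.0469 for Acta2.

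Neuronal and interneuron genes had lower contrasts in Mll1-deleted cultures: Dcx (-2.07), Tubb3 (-1.89), Dlx1as, annotated as antisense to Dlx1 and in a locus that overlaps it (-1.96), Dlx5 (-2.02), Dlx2 (-0.94), Insm1 (-0.73) and Gap43 (-0.69). Lower contrasts were also seen for the oligodendrocyte genes Bcas1 (-1.93) and Enpp6 (-1.48), for the matrix genes Timp1 (-0.75) and Ccn1 (-0.84), and for Fam107a (-1.83). Bcas1 and Enpp6 were highest on day 4 in Mll1-deleted cultures, which lowers their contrast. Fam107a had 65.2, 105 and 217 on day 1 in mice 814, 489 and 858, and the mice went in different directions from day 0.

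Higher contrasts in Mll1-deleted cultures were found for growth factor signalling genes, namely Egfr (1.15), Ccnd1 (1.54), Ier3 (1.18), Spry4 (1.00), Egr1 (0.80) and Egr2 (0.73). Others were the carbonic anhydrase Car3 (2.13), the growth factor binding protein Igfbp3 (1.87), the annexin Anxa3 (1.71), the vesicle GTPase Rab3b (1.61), the neural adhesion protein Cntn6 (1.60), hexokinase Hk2 (0.83), the RNA Phxr4 (0.89), the phosphatase Ptprz1 (0.80), smooth muscle actin Acta2 (0.75), Smoc1 (0.62) and the Wnt inhibitor Sfrp2 (0.58). Igfbp3 fell from 6498 to 9019 on day 0 to 583 to 1178 on day 4, with mouse 858 the lowest on each day.

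The difference was called under every alternative for 11 of the 29, which are Car3, Igfbp3, Ccnd1, Rab3b, Ier3, Spry4, Fam107a, Dlx5, Dlx1as, Bcas1 and Tubb3. For the others at least 1 alternative ended the call, most often the omission of a mouse.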

How the results depend on the processing

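Counts moved most with single mice. Leaving out 1 Mll1-deleted mouse gave 852 to 4032 genes with a called contrast (463 to 1739 higher, 389 to 2293 lower, lowest without mouse 489) and 192 to 774 peaks and dips (138 to 435 peaks, 54 to 339 dips). Leaving out 1 wild-type mouse gave 3481 to 4376 calls in wild-type (1754 to 2333 higher, 1727 to 2043 lower), and leaving out any mouse gave 222 to 1453 genotype differences (90 to 616 higher, 124 to 837 lower). Fewer arrays enter each of these fits. Without the replicate block that pairs the days of a mouse, 2690 contrasts were called, 1415 of them lower, with 641 peaks and dips, 255 of them dips, and 277 genotype differences, 122 higher and 155 lower. Every other alternative left each count within 1.5 times its value. Shifting each array to one median turned 44.5% higher calls into 52.9%, while it moved the median of all genes from -0.033 to -0.009. Of the 123 named genes 115 were called, and 63 of these were called under every alternative. Omitting mouse 489 ended 49 calls, omitting the block 17, omitting mouse 814 12 and omitting mouse 858 5. Only Fam107a reversed: its contrast of 0.03 became -0.58 without mouse 858 (adjusted p = 0.0129), against 0.28 without mouse 489 and 0.38 without mouse 814, and the cause was not tested. The list counts without each mouse and the lengths by brightness were chosen after seeing the data. Changes among the dim genes, such as Bcas1 before day 2, are limited by the floor.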

Other observations

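Further gene groups of the Mll1-deleted cultures changed in few members or in one step. Their counts stand beside 8.5% of all genes called higher and 10.6% called lower. Of 20 p53 targets 5 were called higher and 2 lower (2, 4 and 4 higher without mouse 489, 814 and 858). Trp53inp1, a stress gene that promotes autophagy, had 1294 to 2042 on day 0, 2093 to 2965 on day 1, 1579 to 2467 on day 2 and 1690 to 2099 on day 4, with overlap of middle and end days and a contrast of 0.41 ± 0.075 (adjusted p = 0.00341). Ei24 peaked with it (0.35 ± 0.066, adjusted p = 0.00404), as did Btg2. Both Trp53inp1 and Ei24 lost the call without mouse 489 (adjusted p = 0.0921 and 0.0739), Trp53inp1 also without the mouse block (0.081) and Ei24 without mouse 814 (0.0609). Of 9 CDK inhibitors and relatives 2 were higher and 1 lower (0, 1 and 4 higher without mouse 489, 814 and 858). Rbl2, the pocket protein p130 of resting cells, was the peak, at 391 to 499 on day 0, 555 to 692 on day 1, 537 to 618 on day 2 and 439 to 491 on day 4, without overlap. Its contrast was 0.41, 0.41 and 0.40 in mice 858, 814 and 489 (adjusted p = 0.00554, and 0.0687 without mouse 489).

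Of 18 circadian genes 4 were higher and 1 lower (0, 1 and 2 higher without mouse 489, 814 and 858), and the clock repressor Per3 was the peak (0.36 ± 0.072, adjusted p = 0.00544, and 0.0874 without mouse 489). Of 12 hedgehog pathway genes 4 were higher and 1 lower (1, 1 and 4 higher without mouse 489, 814 and 858), none a peak or dip. The transcription factor Gli3 had 486 to 511 on day 0, 377 to 472 on day 1, 280 to 451 on day 2 and 130 to 191 on day 4. It fell with time in each mouse apart from mouse 814 between days 1 and 2, and was called against day 4 as higher and against day 0 as lower. Of 19 genes of fatty acid oxidation and PPAR signalling 5 were higher and 1 lower (1, 3 and 5 higher without mouse 489, 814 and 858). Of 23 interferon genes 4 were lower (1, 2 and 2 without mouse 489, 814 and 858), with Ifi35 as a dip (-0.49 ± 0.079, adjusted p = 0.00182) that kept its call under every alternative.

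Of 20 astrocyte genes 4 were called higher, all against day 0 only, and 2 lower (0, 3 and 4 higher without mouse 489, 814 and 858). The lipoprotein Apoe had 1233 to 4795 on day 0, 6682 to 13674 on day 1, 12341 to 15210.0 on day 2 and 16326 to 17048 on day 4, so it kept rising. Of 17 oligodendrocyte precursor genes 6 were higher and 4 lower (0, 4 and 7 higher without mouse 489, 814 and 858), and of 19 genes of newly formed oligodendrocytes and myelin 1 was higher and 4 lower, all 4 against day 4 (1, 6 and 6 lower without mouse 489, 814 and 858). In neither list was there a peak or dip. Enpp6 was at 18.7 to 28.9 up to day 2, near the floor, and at 70.3 to 630.2 on day 4. Of 26 synaptic genes 4 were higher and 8 lower (2, 2 and 6 lower without mouse 489, 814 and 858); the vesicle protein Sv2a was a dip (-0.70 ± 0.141, adjusted p = 0.00572, and 0.0725 without mouse 489).

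Of 18 endothelial and pericyte genes 5 were lower (0, 4 and 5 without mouse 489, 814 and 858). The contractile genes Acta2 (1078 to 9008) and Tagln (198 to 1464) were bright on all 12 arrays while the list as a whole was dim. Tagln was the dip, with 651 to 1464 on day 0, 198 to 355 on day 1, 362 to 778 on day 2 and 463 to 727 on day 4 and a contrast of -0.87 ± 0.138 (adjusted p = 0.00162, and 0.0709 without mouse 489). By limma none of 15 microglial genes was called (1 at an unadjusted p under 0.05), and none of 35 Hox genes, which are known targets of Mll1 in other tissues (7 at an unadjusted p under 0.05). Without mouse 858, 3 Hox genes were called lower, and 1 microglial gene was called higher with arrays shifted to one median and 1 lower with 1 value per mouse. The median Hox intensity of an array was 29.0 to 40.6, and 8 of the 35 genes were near the floor on every day.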
